A study of Mus musculus with 13 samples.

Results

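Iron handling was followed through 9 genes in RNA of mouse adipocytes after a chow diet or a high-fat diet (HFD). The genes were taken by symbol from the deposited table: Tfrc, Trf and Slc11a2 of iron supply, Fth1, Ftl1 and Ncoa4 of iron storage, Slc40a1 and Cp of iron export, and Hmox1 of haem breakdown. All 9 of 9 were listed among 11761 rows, and all 9 passed the filter of a mean of at least 1 CPM (reads per 1e+06 reads). The animals were Adipoq-NuTRAP mice on the C57BL/6J background, fed either diet for 10 weeks, and the fat was epididymal white adipose tissue. Adipoq, the adiponectin gene, drives the NuTRAP reporter in fat cells, so that their ribosomes carry GFP and the RNA bound to them can be pulled down from whole-fat homogenate (translating ribosome affinity purification, TRAP). There were 3 libraries per diet. The labels do not say whether these came from separate or pooled animals, so p-values reflect library-to-library spread alone, and that spread may be technical. Age and sex are not in the labels, and what the HFD was made of is not stated in the labels. The 7 chromatin samples of the series were not analysed here.

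Iron circulates bound to transferrin, enters cells through the transferrin receptor by endocytosis, and leaves the endosome through the divalent metal transporter. Cells store it in ferritin shells built of heavy and light chains, and release it again by selective autophagy of ferritin. Ferroportin is the exporter, and copper-containing ferroxidases oxidise the iron it releases so that transferrin can bind it. Iron regulatory proteins bind hairpins in the untranslated regions of several of these transcripts: binding holds back translation of ferritin and ferroportin and protects transferrin receptor mRNA from decay. A TRAP library reads RNA on ribosomes, so it reflects transcript abundance and ribosome loading together. In fat, iron supports mitochondrial enzymes, and adipocytes secrete transferrin and ceruloplasmin.

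The libraries held an effective 7410000 to 39300000 reads, with chow replicate 3 the shallowest. Each member was nevertheless read at least 40 times in every library, the lowest being Slc40a1 in chow replicate 3. With limma and Benjamini-Hochberg adjustment over 11643 genes, 35.1% of all genes were called at an adjusted p under 0.05, 19.1% higher and 16.0% lower in HFD. Against that background 4 of the 9 iron genes (44.4%) were called, 1 higher and 3 lower, and 5 did not pass. The libraries of the diets did not overlap for the same 4 genes, against 50.2% of all genes tested. A share of this size is near the background, so the results below concern which genes moved and by how much. The median log2 fold change of the 9 genes was 0.01, and that of all genes tested was -0.004.

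**Figure D1:**
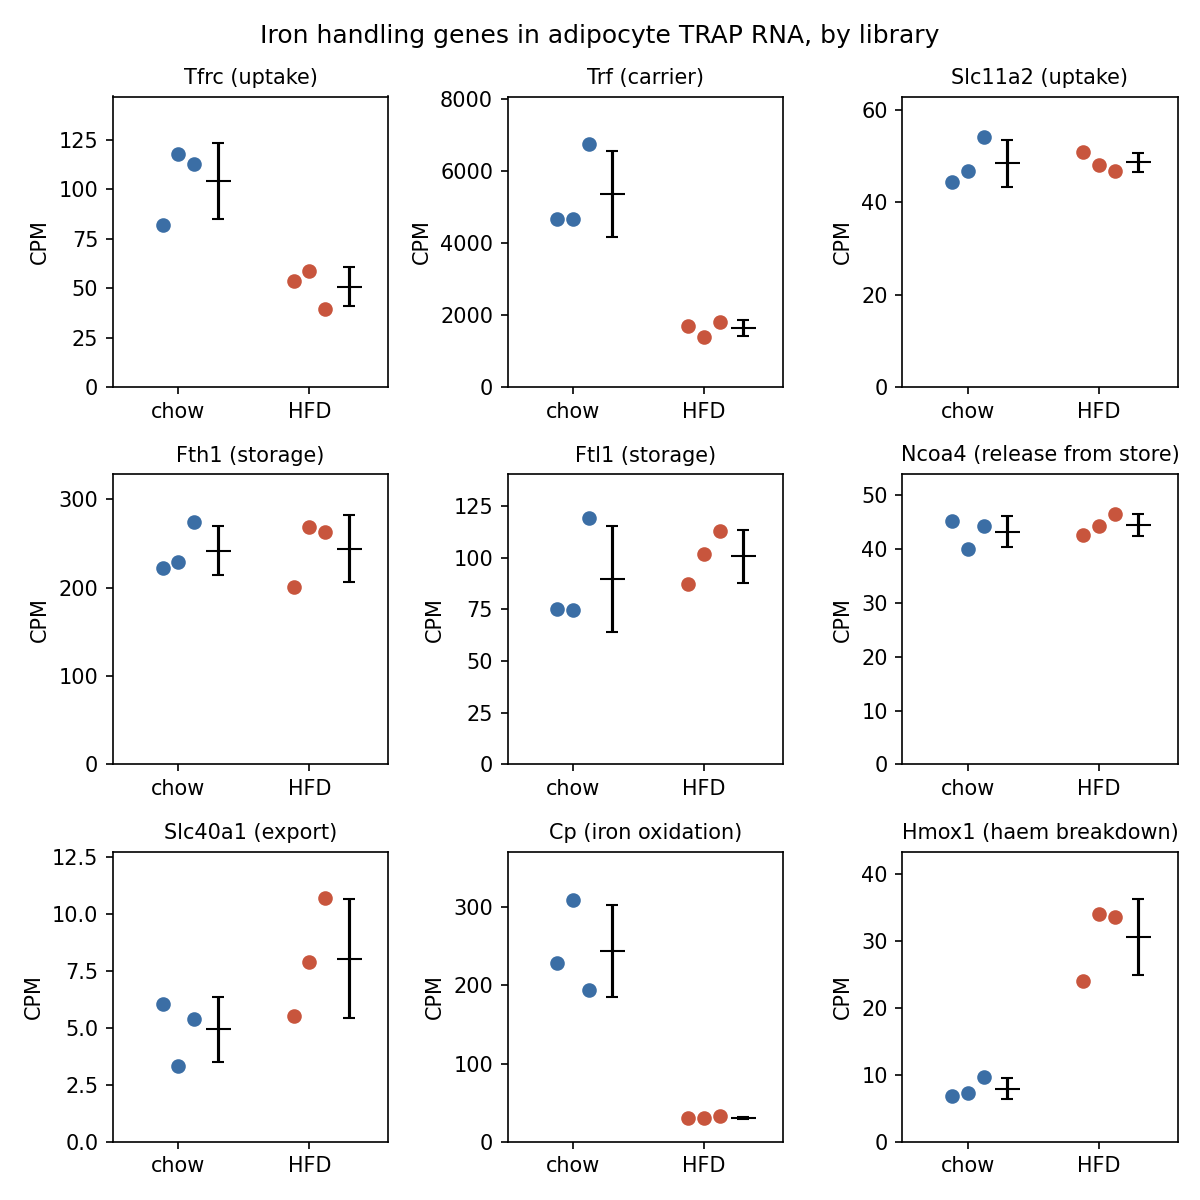
Level of each iron handling gene in CPM (vertical axes, from 0) in the 3 chow (blue) and 3 HFD (red) libraries, 1 point per library, with the mean and SD beside them. The diets are separate for Tfrc, Trf, Cp and Hmox1 and overlap for the other 5 genes.

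The largest difference among the members was that of Cp, which encodes ceruloplasmin, the ferroxidase of plasma that is also made as a membrane-anchored form. Its level was 229, 309 and 194 CPM in chow replicates 1, 2 and 3 and 30.1, 30.5 and 32.7 CPM in HFD replicates 1, 2 and 3. Every HFD library lay far below every chow library, and the HFD libraries were close to each other. The mean fell from 244 ± 58.8 to 31.1 ± 1.40 CPM (SD, n = 3 each), 7.85-fold lower. On log2(CPM + 1) the difference was -2.91 (SE 0.17, 95% interval -3.29 to -2.53, limma adjusted p 7.93e-06). Cp lies on chromosome 3 at 19956933 to 20009750 (GRCm38.p6), where its span overlaps Hps3, a gene of lysosome-related organelles that is also listed. The kit does not mark strand and overlap of exons was not checked. Hps3 itself averaged 47.3 ± 1.79 CPM on chow, against 41.9 ± 2.75 CPM on HFD (log2 difference -0.17, adjusted p 0.307 by limma), and did not pass.

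Trf, the gene of transferrin, the iron carrier of blood, was lower as well. Its readings were 4673, 4673 and 6747 CPM in chow replicates 1, 2 and 3 and at 1698, 1399 and 1808 CPM in HFD replicates 1, 2 and 3. All HFD libraries were below all chow libraries, and chow replicate 3 was the highest of the 6. The mean fell from 5364 ± 1198 to 1635 ± 212 CPM (SD, n = 3 each), 3.28-fold lower, with a log2 difference of -1.70 (SE 0.20, 95% interval -2.15 to -1.25, limma adjusted p 0.000277). Trf lies on chromosome 9 at 103208876 to 103230286, with no other annotated gene over its span.

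Tfrc encodes the transferrin receptor, the main route of iron entry. Its level was 82.1, 118 and 113 CPM in chow replicates 1, 2 and 3 and 53.8, 58.9 and 39.7 CPM in HFD replicates 1, 2 and 3. The groups did not overlap, although in CPM, not on the log2 scale, chow replicate 1 was nearer to HFD replicate 2 than to the other chow libraries. The mean fell from 104 ± 19.3 to 50.8 ± 9.96 CPM (SD, n = 3 each), 2.05-fold lower, with a log2 difference of -1.03 (SE 0.19, 95% interval -1.45 to -0.60, limma adjusted p 0.00306). Receptor and ligand were thus both lower, on chromosomes 16 and 9. Slc11a2, the gene of the divalent metal transporter that carries iron out of the endosome, did not pass. Chow libraries gave 44.3, 46.8 and 54.2 CPM, and HFD libraries 50.9, 48.2 and 46.8 CPM, with overlapping groups. The log2 difference of Slc11a2 was 0.01, with a 95% interval of -0.28 to 0.30 (limma adjusted p 0.963). Its span overlaps Gm5475, a long non-coding RNA gene that is not listed.

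Genes of iron storage showed no called difference. Fth1, the heavy ferritin chain, which holds the ferroxidase centre, gave 223, 229 and 274 CPM in the chow libraries, with 201, 269 and 263 CPM in the HFD libraries. The lowest and the next-to-highest values both came from HFD libraries. The log2 difference of Fth1 was 0.01 (SE 0.15), and its 95% interval of -0.33 to 0.35 leaves room for modest changes in either direction (limma adjusted p 0.978). Ftl1, the light chain, which favours mineral formation in the shell, gave 75.1, 74.5 and 119 CPM in the chow libraries, with 87.4, 102 and 113 CPM in the HFD libraries. Chow replicate 3 alone lay above the HFD libraries, and the other chow libraries lay below all of them. With all libraries the log2 difference of Ftl1 was 0.19 (SE 0.19, 95% interval -0.24 to 0.63, limma adjusted p 0.467). Without chow replicate 3, the shallowest library, it was 0.42 with an adjusted p of 0.0466, the single fit among those run in which a further member passed. Both ferritin genes have pseudogenes in the annotation, 2 named after Fth1 and 3 after Ftl1 by symbol, and reads that fit several copies may have been assigned differently.

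Ncoa4, the receptor that carries ferritin to autophagosomes, was read in chow at 45.3, 39.9 and 44.3 CPM, and in HFD at 42.5, 44.3 and 46.5 CPM. These ranges overlapped, and the log2 difference was 0.04 (95% interval -0.24 to 0.32, limma adjusted p 0.819). The annotation holds 1 pseudogene whose symbol shares the name stem of Ncoa4.

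Slc40a1, the gene of ferroportin, the iron exporter, was the least read member. In chow it gave 6.06, 3.34 and 5.39 CPM, and in HFD 5.50, 7.89 and 10.7 CPM. HFD replicate 1 fell inside the chow range and the other HFD libraries above it. The log2 difference was 0.60 (SE 0.28, 95% interval -0.03 to 1.22), and Slc40a1 did not pass (limma adjusted p 0.127). The interval runs from no change to a clear rise, so these libraries do not settle its direction. On the export side, then, the exporter gene was not called, while the ferroxidase gene Cp was much lower.

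Hmox1 encodes haem oxygenase, the inducible enzyme that opens the haem ring and frees its iron. It was the only member called higher in HFD. Its level was 6.82, 7.36 and 9.71 CPM in chow replicates 1, 2 and 3 and 24.1, 34.1 and 33.6 CPM in HFD replicates 1, 2 and 3. The lowest HFD library was above the highest chow library, and the mean rose from 7.96 ± 1.54 to 30.6 ± 5.63 CPM (SD, n = 3 each), 3.84-fold. The log2 difference was 1.81 (SE 0.20, 95% interval 1.37 to 2.26, limma adjusted p 0.000183).

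**Figure D2:**
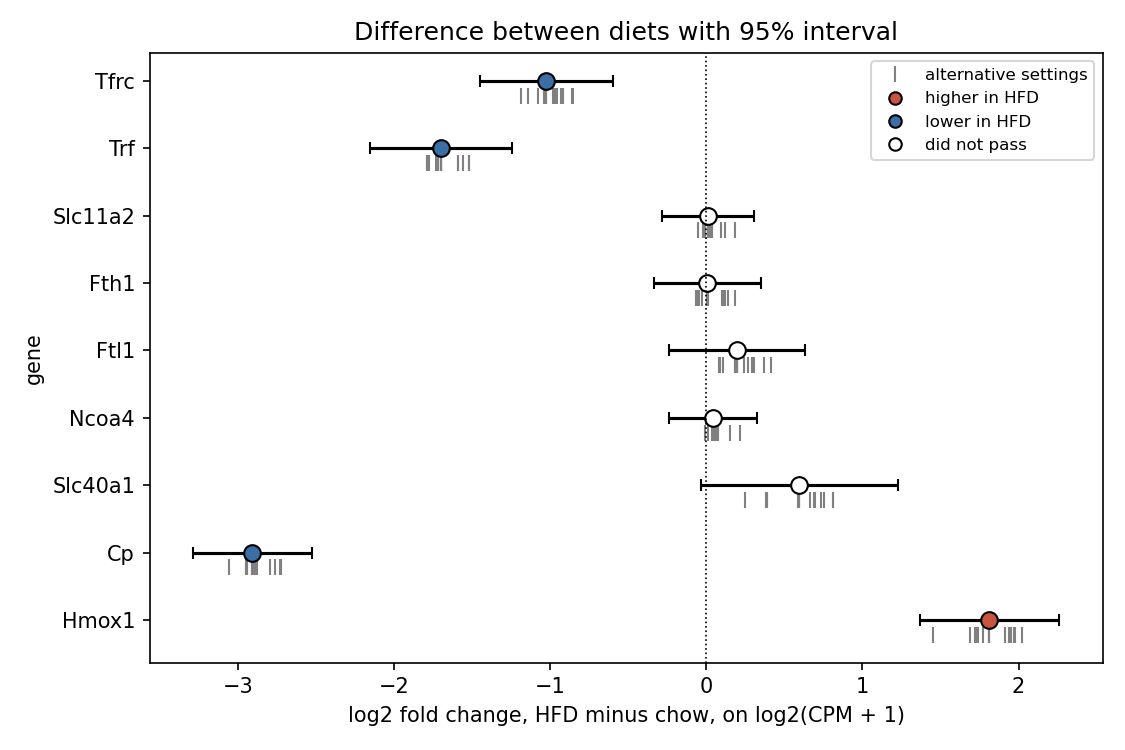
Log2 fold change of each member, HFD minus chow on log2(CPM + 1) (horizontal axis), with its 95% interval, and below each the values from the alternative settings as grey ticks. Tfrc, Trf and Cp lie below 0 and Hmox1 above 0 in every setting drawn, and the intervals of the other 5 genes include 0.

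Hmox1 and Slc40a1 are also strongly expressed by macrophages, which recycle haem iron. Of 24 macrophage markers 22 were listed and 21 tested: 18 rose and 1 fell (Cd14), with a median over the 21 of 2.09 on the log2 scale. The background for each marker list here is that 19.1% of all genes tested rose and 16.0% fell. Of the 18, Cd68, Fcgr1, Trem2, Tyrobp and Mmp12 had chow means under the filter of 1 CPM and were tested only through their HFD level. The count and the median rest partly on these genes. The summed level of the 22 was 198 to 225 CPM in chow and 569 to 868 CPM in HFD. Cd163, the macrophage scavenger receptor for haemoglobin, gave 43.4, 28.6 and 39.4 CPM on chow, against 56.9, 41.1 and 54.6 CPM on HFD, without passing (log2 difference 0.45, limma adjusted p 0.095). Endothelial markers moved too, 12 of 13 rising, with sums of 40.0 to 107 CPM in chow and 188 to 381 CPM in HFD. Among the 12, Emcn had a chow mean of 0.736 CPM and was tested only through its HFD level. All 7 tested smooth muscle and pericyte markers rose as well, with sums of 99.5 to 133 CPM in chow and 646 to 945 CPM in HFD. The part of these cells in the rise of Hmox1 was not tested. In pulled-down RNA, changes in the number of cells, in RNA per cell and in carry-over of other cells' RNA cannot be told apart. Erythroid markers were near 0, with 3 of 10 listed and sums of 1.10 to 3.17 CPM in chow and 2.27 to 6.46 CPM in HFD. Among fibroblast markers 6 of 13 rose and 1 fell, among mesothelial markers 3 of 8 rose, and Ptprc, a gene of all white blood cells, rose.

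Adipocyte markers were abundant in every library, with sums of 65940 to 107100 CPM in chow and 56160 to 62730 CPM in HFD over 31 listed of 33. Of these 31, 11 fell and 5 rose, where 16.0% of all genes tested fell and 19.1% rose. The median log2 fold change of the list was -0.28. The falls of Cp, Trf and Tfrc lay inside the range of that list, which ran from -3.07 for Cfd, the adipsin gene, to 2.76 for Orm1. Adrb3, the adrenergic receptor gene of fat, stood at -2.01. Only Cfd fell more than Cp, and only Cfd and Adrb3 fell more than Trf. Cp, Trf and Tfrc also passed when each library was rescaled so that its median adipocyte identity gene was equal. Under that scaling the log2 difference was -2.73 for Cp, -1.52 for Trf and -0.85 for Tfrc, while the median of all genes moved to 0.16. Of all calls 54.4% were higher in the main fit, which kept the deposited scaling, and 75.7% with identity scaling, while quantile normalization gave 46.5%. Equal totals over the listed genes moved the median of all genes to 0.10 and the higher share to 65.3%. The same 4 iron genes were called under all 3 scalings.

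Ratios between members within a library do not depend on scaling, and 4 were tested by exact permutation (two-sided), where 3 libraries per diet allow no p below 0.1. The ratio of Tfrc to Fth1 reads was 0.369, 0.514 and 0.412 in chow and 0.268, 0.219 and 0.151 in HFD, 2.07-fold lower (exact p 0.1, adjusted over the 4 ratios 0.2). That of Slc40a1 to Cp was 0.0265, 0.0108 and 0.0278 in chow and 0.183, 0.259 and 0.328 in HFD, 12.5-fold higher (exact p 0.1, adjusted 0.2). For both ratios the diets did not overlap, which gives the smallest p the design allows. Tfrc and Cp did not overlap between diets on their own either, and Cp alone was 7.85-fold lower. These ratios therefore largely restate those falls and are not separate support. The ratio of Trf to Tfrc overlapped between diets, at 56.9, 39.7 and 59.7 in chow and 31.6, 23.8 and 45.6 in HFD (exact p 0.2, adjusted 0.267). Light to heavy ferritin chain, Ftl1 to Fth1, also overlapped, at 0.337, 0.325 and 0.435 in chow and 0.435, 0.379 and 0.429 in HFD (exact p 0.4, adjusted 0.4). These are ratios of reads and carry the lengths of the transcripts, so they compare diets and not the amounts of the 2 RNAs.

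**Figure D3:**
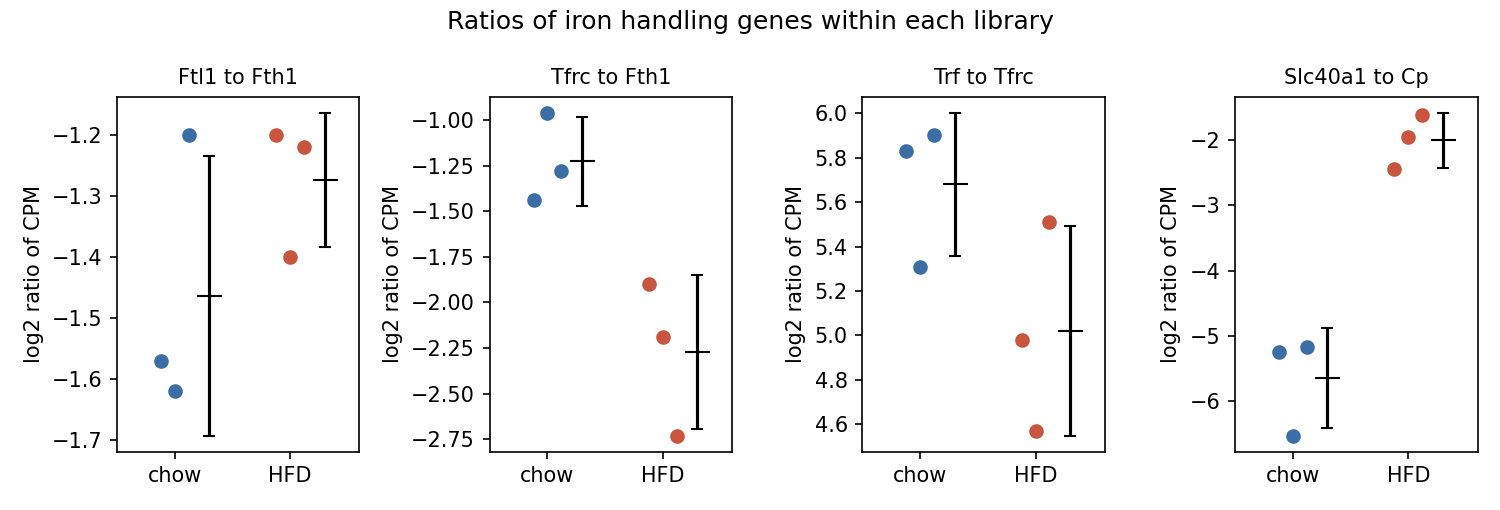
Log2 ratio of CPM between pairs of members within each library (vertical axes), 3 chow (blue) and 3 HFD (red) libraries, with mean and SD beside them. Tfrc to Fth1 is lower and Slc40a1 to Cp higher in every HFD library, and the other ratios overlap between diets.

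Promoter windows from RefSeq (GRCm38.p6; 250 bases before to 50 after a start) were at hand for 5 of the 9 genes, in 10 windows: Tfrc, Fth1, Ftl1, Ncoa4 and Cp. The set held no window for Trf, Slc40a1, Slc11a2 or Hmox1, so their promoters were not searched. The stretches upstream of the gene's first start are shown for Tfrc and Cp, which were lower in HFD, and for Ftl1, which was not called. They are written 5′ to 3′ on the gene's strand, with chr16:32608646-32608895 (plus) for Tfrc, chr3:19956804-19956932 (plus) for Cp and chr7:45459887-45460136 (minus) for Ftl1.
Tfrc: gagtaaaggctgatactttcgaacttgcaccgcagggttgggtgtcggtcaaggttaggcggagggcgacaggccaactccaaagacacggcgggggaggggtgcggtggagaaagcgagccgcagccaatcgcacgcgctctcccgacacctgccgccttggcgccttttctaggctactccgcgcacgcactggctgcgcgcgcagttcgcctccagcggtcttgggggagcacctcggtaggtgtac
Cp: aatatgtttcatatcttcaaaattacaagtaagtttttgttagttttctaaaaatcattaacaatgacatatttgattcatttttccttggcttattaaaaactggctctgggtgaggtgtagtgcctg
Ftl1: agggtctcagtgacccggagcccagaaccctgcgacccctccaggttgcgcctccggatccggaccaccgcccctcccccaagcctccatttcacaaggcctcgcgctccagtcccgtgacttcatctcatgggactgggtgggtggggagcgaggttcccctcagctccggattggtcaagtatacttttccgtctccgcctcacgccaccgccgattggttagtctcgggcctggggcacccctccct
The Tfrc and Ftl1 stretches are rich in G and C (64.8% and 65.2%), against a median of 52.4% over the 250 bases before the start in all 32851 windows. That of Cp is shorter, 129 bases before the gene's first annotated base, and holds 29.5% G and C, so it is not measured over the same stretch.

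Tfrc, Trf, Cp and Hmox1 are textbook targets of hypoxia-inducible factors, and ACGTG is a form of their core site. Hmox1 and ferritin are targets of NRF2, which binds the antioxidant response element TGACNNNGC. Both letter patterns were searched on both strands, and other forms of either site were not. The first occurred in 19.6% of all windows and the second in 12.4%. Among the members ACGTG was found in both windows of Tfrc, as 1 shared match, and in 2 of the 3 windows of Ncoa4. It was in none of those of Fth1, Ftl1 or Cp, where other forms of the core were not searched. The antioxidant element was found in 1 window of Ncoa4 alone and overlapped no ACGTG match. The matched stretches of 30 bases follow with the core, or its reverse complement, in capitals, at chr16:32608882-32608911 for Tfrc and at chr14:32159804-32159833 and chr14:32165709-32165738 for Ncoa4, all on the plus strand.
Tfrc: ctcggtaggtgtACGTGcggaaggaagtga
Ncoa4 window 1: actgcatgcctcCACGTtgagctctaagaa
Ncoa4 window 3: agggggagggagACGTGacgcgcgcaaggc
Tfrc, which was lower in HFD, and Ncoa4, which was not called, both carry this match, and Cp, also lower, has none in its 2 windows. A match of these letters is a description of the sequence.

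Around the members, 111 further genes were read in 6 lists, 5 of iron and haem metabolism and 1 of NRF2 targets, and 99 of them were listed and tested. Of these 99, 17 rose, 22 fell and 60 did not pass, with a median of -0.14. The called share was 39.4%, near the 35.1% of all genes tested. Under scaling to the median adipocyte identity gene 16 rose and 9 fell, so the number of falls depends on the scaling.

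**Figure D4:**
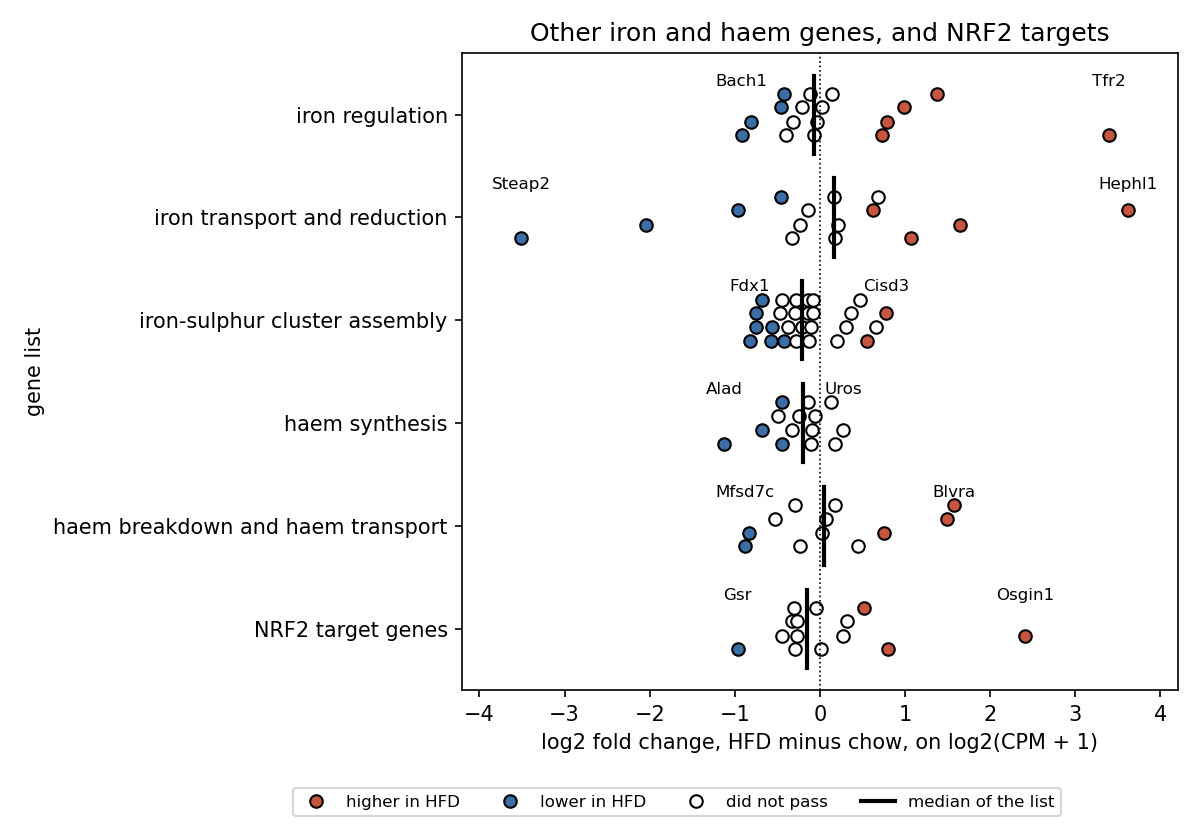
Log2 fold change, HFD minus chow on log2(CPM + 1) (horizontal axis), of the tested genes of 6 lists (rows), 1 point per gene, filled where the gene was called, with the list's median as a bar. Steap2 and Hephl1 stand farthest to either side, and the haem synthesis row holds no gene called higher.

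Regulators of iron moved in both directions, 5 rising and 4 falling of 17 tested (median -0.07). The called share was 52.9%, against 35.1% of all genes tested. The falls were 2 under equal totals, under scaling to the identity genes, without chow replicate 2 and without HFD replicate 2. Aco1, the gene of iron regulatory protein and cytosolic aconitase, fell from 516 ± 45.3 to 293 ± 12.5 CPM (log2 difference -0.81, limma adjusted p 0.00105). Its partner Ireb2 fell from 175 ± 13.3 to 131 ± 12.7 CPM (-0.42, adjusted p 0.0286), a call that was lost under equal totals (-0.31, adjusted p 0.074) and under scaling to the identity genes (-0.24, adjusted p 0.425). It was also lost on leaving out chow replicate 2, chow replicate 3, HFD replicate 1 or HFD replicate 2 (limma adjusted p 0.0609, 0.0504, 0.0769 and 0.104). Fbxl5, the iron-sensing ubiquitin ligase subunit that marks iron regulatory protein for degradation, rose from 193 ± 10.5 to 323 ± 66.8 CPM (0.72, limma adjusted p 0.00683). Hfe, which binds the transferrin receptor, rose from 139 ± 19.8 to 277 ± 24.4 CPM (0.99). Tfr2, the second transferrin receptor gene, rose from 0.588 ± 0.533 to 17.4 ± 12.5 CPM (3.39, limma adjusted p 0.000503), with 0 reads in chow replicate 3. Its libraries did not overlap, as for 50.2% of all genes tested, and the direction was opposite to Tfrc. Its chow mean lay below the filter of 1 CPM, so Tfr2 was tested only through its HFD level. Bach1, the haem-sensitive repressor of Hmox1, fell from 69.5 ± 13.8 to 35.9 ± 4.37 CPM (-0.92, limma adjusted p 0.00292) and Hif1a, of the hypoxia response, rose by 0.78. Nfe2l2, the gene of NRF2, averaged 58.2 ± 10.9 CPM on chow, against 58.8 ± 2.73 CPM on HFD, without passing.

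Transporters and metal reductases divided as well, with 4 rising and 4 falling of 15 tested (median 0.16), a called share of 53.3% against 35.1% of all genes. Steap2, an endosomal metal reductase gene, fell from 31.1, 46.2 and 26.7 CPM in chow to 1.88, 1.64 and 2.73 CPM in HFD (-3.51, limma adjusted p 1.77e-05). Its relative Steap4 fell from 1299 ± 235 to 657 ± 12.0 CPM (-0.97, adjusted p 0.00176), and both were lower in every HFD library. Ferroxidase genes other than Cp split: Heph, hephaestin, fell from 436 ± 35.8 to 316 ± 13.9 CPM, and Hephl1 rose from 0.18, 0.26 and 0.41 CPM to 12.3, 13.7 and 18.8 CPM (3.62, limma adjusted p 1.64e-05). Hephl1 was below the filter of 1 CPM in chow, so it was tested only through its HFD level. The fall of Heph (-0.46, adjusted p 0.016) did not pass under equal totals (-0.35, adjusted p 0.07), quantile normalization (-0.34, adjusted p 0.0576) or identity scaling (-0.29, adjusted p 0.352). Nor did it pass without chow replicate 2, HFD replicate 1 or HFD replicate 3 (limma adjusted p 0.0611, 0.0568 and 0.0507). Rises were also called for the metal importer genes Slc39a8 (1.64) and Slc39a14 (0.62) and for mitoferrin, Slc25a37 (1.07), which brings iron into mitochondria. Sfxn1 fell by 2.05 on the log2 scale. It belongs to the sideroflexins but is known as a mitochondrial serine carrier, so it does not do what the name of the list says.

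Users of iron were read in lists of iron-sulphur cluster assembly and haem synthesis. Of 27 tested genes of iron-sulphur cluster assembly, 7 fell (25.9%, against 16.0% of all genes) and 2 rose (7.41%, against 19.1%), with a median of -0.22. They included Fdx1, the electron donor ferredoxin (-0.82), Isca1 (-0.75), Iba57 (-0.75) and Nubpl (-0.68), and the rises were Cisd3 (0.78) and Isca2 (0.56). Under scaling to the identity genes 1 of the 27 fell and 2 rose. Without HFD replicate 2, 3 fell and 1 rose. Of the genes named, Iba57, Isca1 and Nubpl lost their calls under that scaling (limma adjusted p 0.0725, 0.0511 and 0.13). So did Iba57, Nubpl and Isca2 without HFD replicate 2 (0.0572, 0.0725 and 0.0752), Nubpl without HFD replicate 1 (0.0617) and Isca2 without chow replicate 3 (0.0505). Of 14 genes of haem synthesis 4 fell by limma (28.6%, against 16.0% of all genes) and 0 rose (against 19.1% of all genes). The median was -0.20, and 1 fell under scaling to the identity genes. On leaving out single libraries 2 to 5 fell, with 2 without chow replicate 2 or without any 1 of the HFD libraries. Alad, the second enzyme of the pathway, fell from 85.9 ± 8.53 to 38.8 ± 2.89 CPM (-1.13, limma adjusted p 0.000251) and was that one. Alas1, the first and rate-limiting enzyme outside red cells, fell from 253 ± 45.1 to 184 ± 6.59 CPM (-0.44, adjusted p 0.042), a call lost under equal totals, quantile normalization and identity scaling (adjusted p 0.182, 0.114 and 0.456). It was lost too without each single library other than chow replicate 3 (limma adjusted p 0.0833 to 0.14). Fech, which inserts the iron, did not pass (adjusted p 0.77).

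Haem breakdown and haem transport held 3 rises and 2 falls of 12 tested (41.7% called, against 35.1% of all genes), with a median of 0.05. Blvra, biliverdin reductase, which acts on the product of haem oxygenase, rose from 18.9, 19.2 and 13.4 CPM in chow to 42.5, 65.3 and 51.6 CPM in HFD (1.57, limma adjusted p 0.000402). Thus Blvra and Hmox1, consecutive steps of the pathway, were both higher. Blvrb (0.07, adjusted p 0.719) and the constitutive haem oxygenase gene Hmox2 (0.03, adjusted p 0.888) did not pass. Slc48a1, a haem transporter of endosomes and lysosomes, rose from 168 ± 2.02 to 284 ± 36.5 CPM (0.75), and Pgrmc1, a haem-binding membrane protein, fell by 0.83 on the log2 scale. Hp, haptoglobin, which binds free haemoglobin and is secreted by fat, averaged 3055 ± 792 CPM on chow, against 2113 ± 527 CPM on HFD, without passing (-0.53, adjusted p 0.111). Of 14 tested NRF2 targets outside iron handling, 3 rose (Osgin1 2.41, G6pdx 0.80 and Srxn1 0.51) and 1 fell (Gsr -0.97), with a median of -0.16. The called share was 28.6%, against 35.1% of all genes tested. Osgin1 had a chow mean under the filter of 1 CPM and was tested only through its HFD level. Srxn1 lost its call under identity scaling (limma adjusted p 0.0553) and without chow replicate 1, chow replicate 3, HFD replicate 2 or HFD replicate 3 (0.0518, 0.073, 0.113 and 0.0758). Nqo1, the customary NRF2 reporter gene, was chosen after its values were seen and did not pass (-0.27, adjusted p 0.43).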

How the data were processed

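RNA from TRAP of adipocytes was measured in 6 libraries, 3 chow and 3 HFD, depleted of ribosomal RNA and tagmented, per the labels' protocols. HISAT2, Picard, featureCounts and edgeR and the build mm10 are named in the submitters' processing notes, without roles or versions. The deposited values are log2 CPM per gene, to 2 decimals. They were turned into CPM, and log2(CPM + 1) was fitted by limma 3.58.1 (R 4.3.3; eBayes, trend on, two-sided, Benjamini-Hochberg, threshold 0.05) over 11643 genes whose mean reached 1 CPM. Differences are HFD less chow; low genes are understated by the pseudocount of 1. Library sizes were read from the steps of low values, which were whole reads within 0.1 for 100% of the 16 to 20 low values (under 20 reads) used per library. For chow replicate 3 a read equals 0.135 CPM, elsewhere 0.0254 to 0.0433 CPM, so the limit that 0 reads allows (3 reads, counting error only) is 0.405 CPM there and 0.0763 to 0.130 CPM elsewhere.

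The members, lists and tests were chosen with earlier results of these data known. Named genes were the 9 members, the 4 largest rises and 4 largest falls among called genes of each of the 6 other iron lists, and a fixed set whatever its result. Some of these are left out of the text. The fitting script was tested on simulated data. Voom weights on recovered reads were an alternative. Other alternatives changed the pseudocount, the filter or the scaling (3 ways), added a replicate block, or left out each library in turn.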

Additional observations from a re-analysis of the deposited data

How the results depend on the processing

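The calls of Tfrc, Trf, Cp and Hmox1 held in all 15 alternatives, and of 135 refits of the 9 members 126 kept direction and side of the threshold. On leaving out single libraries the number of members called higher was 1 to 2, since Ftl1 (0.0805 to 0.417) passed without chow replicate 3. Members near 0 changed sign on leaving out single libraries: Fth1 ranged from -0.0680 to 0.141, Slc11a2 from -0.0507 to 0.0914 and Ncoa4 from -0.0114 to 0.0765. With identity scaling they stood higher, at 0.183, 0.183 and 0.215. Among other genes so did Nfe2l2 (-0.117 to 0.154), Hmox2 (-0.0945 to 0.124) and Fech (-0.137 to 0.0215 without single libraries, 0.0540 with equal totals, 0.0110 with quantile normalization and 0.119 with identity scaling). None of these 6 was called in any fit. Over all genes 1863 fell, against 1162 (without HFD replicate 3) to 1740 without single libraries, 718 with identity scaling, 2289 with quantile normalization and 2245 with a replicate block. Of the other iron genes 22 fell, against 9 with identity scaling and 13 (without HFD replicate 2) to 22 without single libraries. The cause was not tested. With a replicate block 4839 genes were called, against 4084. Same-numbered libraries correlated in their deviations from the group means at 0.433, 0.232 and 0.0862, and chow replicate 3 correlated better with HFD replicate 2 (0.150), so the numbers were not taken as pairs. Hp and Cd163 passed with the block (adjusted p 0.0296 and 0.0181 by limma), and Cd163 with equal totals (0.0451). Among the 9 members depth limits Slc40a1 most, with 40 reads in chow replicate 3, where Tfr2 had 0 and Hephl1 3.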
